A study of Homo sapiens with 9 samples.

Results

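The 50 genes described here encode the machinery that sends, receives and limits Wnt signals: 14 Wnt ligands, 10 Frizzled receptors, 2 LRP co-receptors, 3 alternative Wnt receptors, 9 secreted or membrane antagonists, 6 cytoplasmic regulators, 2 ubiquitin ligases that act on the receptors, and 4 TCF/LEF transcription factors. The list of symbols was drawn up with earlier results of these data known, no measured value was used to pick a member, and each of the 50 symbols matched 1 Ensembl gene ID among the 57905 IDs of the count table. Of these, 40 had enough counts to be tested and 10 did not. RNA sequencing was done on A549, a long-established line of human lung adenocarcinoma cells, in 3 groups of 3 libraries. The control cells are titled plko and labelled scrambled controls, so it is not clear from the labels whether they received a non-targeting hairpin or the empty plasmid. The group shAKR1B1 carried a short hairpin RNA against AKR1B1, aldose reductase, and the group shSORD one against SORD, sorbitol dehydrogenase. These enzymes are the first and second steps of the polyol pathway, which converts glucose to sorbitol and then to fructose, and the series asks how that pathway bears on the aggressiveness of cancer cells. Each knockdown is a single hairpin label, so an effect of the hairpin sequence cannot be told apart from an effect of losing the enzyme. The series calls the libraries of a group biological replicates without saying whether they were separate transductions, so the p-values reflect how far these particular libraries spread, which may be technical.

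Wnt proteins are lipid-modified secreted ligands that bind Frizzled receptors. Together with LRP5 or LRP6, a Frizzled carries the canonical signal, which keeps beta-catenin from being destroyed by a complex built on AXIN and APC and lets it switch on genes with TCF/LEF factors. Ligands such as WNT5A act mostly through ROR and RYK receptors on cell movement and polarity, and antagonists of the DKK and SFRP families block the signal outside the cell. Several inhibitors, among them AXIN2, NKD1, NOTUM, RNF43 and ZNRF3, are themselves switched on by beta-catenin and limit the signal by feedback. In lung epithelium the pathway is best known for its part in alveolar stem cell renewal and repair.

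Total counts per library ran from 32436524 to 43044456. AKR1B1 was at 10.9% of its control level in shAKR1B1 and at 75.1% in shSORD, and SORD was at 20.1% in shSORD and at 71.1% in shAKR1B1, so each knockdown group also held less of the other enzyme. All 6 listed epithelial markers were detected in every group, and their summed level was 8686 to 8908 CPM (counts per 1e+06 counts, scaled between libraries) in control, 12317 to 12941 in shAKR1B1 and 10748 to 12799.5 in shSORD. KRT8 and KRT18 made up most of the sum; KRT7 was called lower in both knockdowns (log2 -0.76 and -0.21, adjusted p = 3.07e-07 and 0.019), and the other 5 were called higher in both. Of the 6 lung lineage markers, SFTPB was at 0 in all libraries and NKX2-1 averaged at most 0.0700 CPM in a group, whereas NAPSA was called higher in both knockdowns, from 1.31 CPM to 2.01 and 2.32 (adjusted p = 0.00993 and 0.00142). The 7 fibroblast markers summed to 14.8 to 16.4 CPM in control, 8.82 to 10.3 in shAKR1B1 and 34.6 to 55.6 in shSORD, where COL1A1 averaged 36.4 CPM. In shSORD, COL1A1, COL1A2, COL3A1 and PDGFRB were called higher than control, with log2 fold changes of 1.28, 3.79, 3.66 and 1.98, while PDGFRA and DCN averaged at most 0.0926 and 0.0498 CPM there. In shAKR1B1 COL1A1 was called lower (-0.75). LUM, nearly absent from control at 0.0184 CPM, was called higher in both, at 0.236 CPM in shAKR1B1 and 0.471 in shSORD. The 4 endothelial markers summed to at most 0.285 CPM, and of the 4 leukocyte markers CD3E was at 0 and CD14 made up nearly the whole sum of 2.78 to 9.72 CPM. The part of these marker shifts in the changes below was not tested. Libraries of shSORD varied more among themselves than those of the other groups, with a chi-square per degree of freedom between pairs of 12.8 to 26.9 against 2.37 to 6.33 elsewhere. The test used below fits the spread of a gene over all groups together. Its standard errors and p-values may therefore be too small where shSORD is compared and too large for shAKR1B1 against control.

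In control cells the most abundant transcript of the set per length was an antagonist. DKK1, which blocks LRP5 and LRP6, stood at 182 CPM per kilobase of exon, followed by the ligand WNT7B at 33.5, the receptor FZD2 at 25.7 and the co-receptors LRP5 at 24.2 and LRP6 at 14.0. FZD7 at 12 and RNF43 at 10.3 came next. FZD2 and LRP5 are neighbours whose control libraries overlapped, whereas DKK1 and WNT7B were each apart from the next gene in every control library. Among the ligands WNT7B was followed by WNT3 at 4.35 CPM per kilobase and WNT9A at 1.07, and the remaining tested ligands lay at or below 0.853. The lowest tested members were WNT2B and CXXC4, at 0.0470 and 0.0472 CPM per kilobase, which are also overlapping neighbours. The order is a description of 3 libraries and was not tested.

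**Figure D1:**
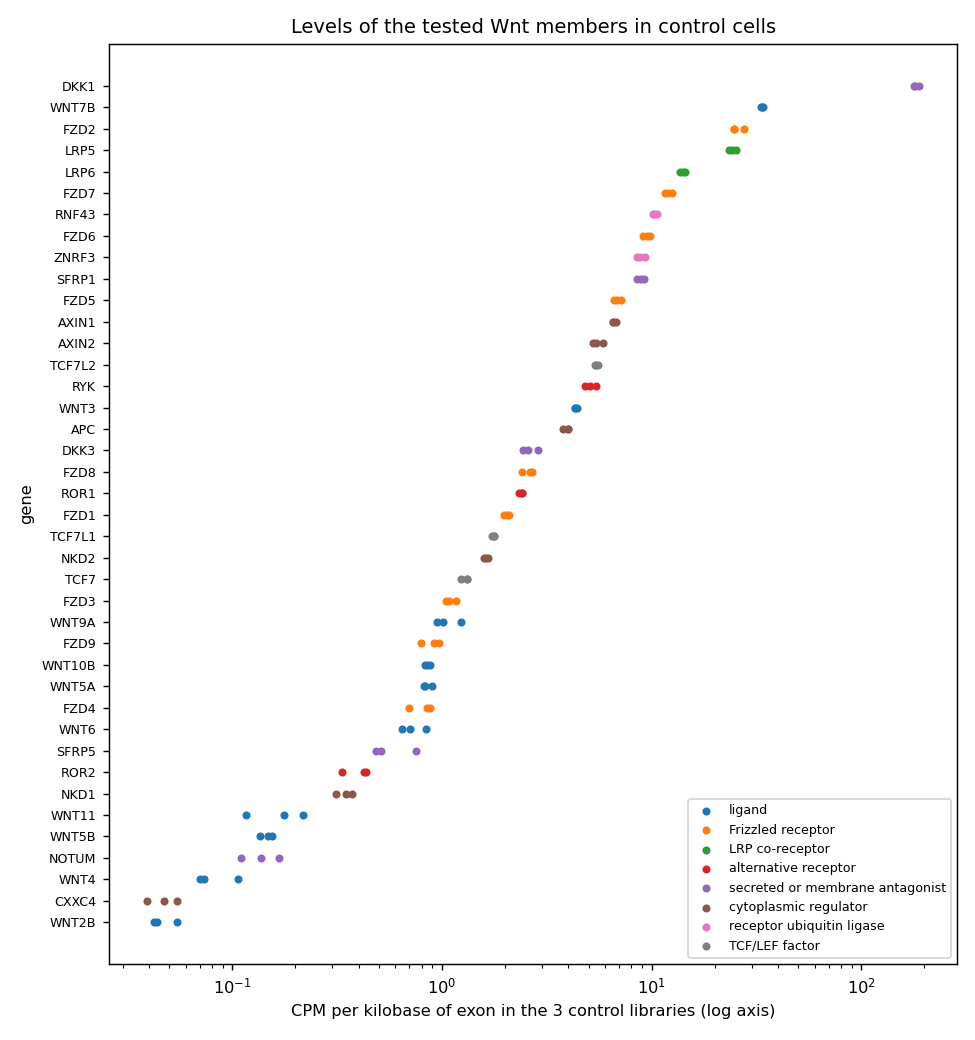
Level of each of the 40 tested Wnt members in control cells, as CPM per kilobase of exon on a log axis, 1 point per control library, coloured by role. DKK1 is far to the right at 182 on average, WNT7B is the next at 33.5, and CXXC4 and WNT2B are at the bottom near 0.047.

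The 10 members below the expression filter were the ligands WNT3A, WNT7A, WNT10A and WNT16, the receptor FZD10, the antagonists DKK4, SFRP2, WIF1 and APCDD1, and the transcription factor LEF1. WNT16 had no count in any library, and DKK4 and SFRP2 had 1 count each over all 9. WIF1, a secreted protein that binds Wnt ligands, had 2, 2 and 4 counts in control, 5, 10 and 18 in shAKR1B1 and 1, 3 and 3 in shSORD. LEF1 had 6, 4 and 2 counts in control, 2, 1 and 1 in shAKR1B1 and 0, 2 and 0 in shSORD. No fold change is given for these genes, whose counts are too few to test. Of the 40 tested members, 35 reached the filter level in all 3 groups, and WNT5B, WNT11, SFRP5, NOTUM and CXXC4 did so in fewer, so their passing depended on the group in which they were high.

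Against control, shAKR1B1 changed the transcripts of 29 of the 40 tested members. WNT2B, WNT4, FZD8 and above all CXXC4 rose at least 2-fold, and WNT5A, WNT11, FZD9, ROR2, SFRP1, SFRP5, NOTUM and NKD1 fell at least 2-fold. A member was called where its adjusted p from the edgeR quasi-likelihood test, corrected over all 16916 genes tested, was under 0.05. In this comparison 8 members rose and 21 fell, and over all tested genes 57.4% were called, 27.8% higher and 29.6% lower. At least 2-fold changes were made by 4 members upward, against 8.45% of all genes, and by 8 downward, against 3.93%. Of these falls, WNT11, SFRP5 and NOTUM reached the filter level in control alone, and CXXC4 among the rises did so in the knockdowns alone. The filter thus favoured these directions for them. The median log2 fold change was -0.31 over the 40 members and 0.00 over all genes. Libraries of the groups did not overlap for 32 members and for 69.1% of all genes. Of these, 9 members lay above control, against 33.5% of all genes, and 23 below it, against 35.7%.

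In shSORD, 27 of the 40 were called against control, with 9 higher and 18 lower. The at least 2-fold rises were again WNT2B, WNT4, FZD8 and CXXC4, and the falls of that size were WNT5A, WNT11, ROR1, ROR2, DKK1, SFRP5, NKD1 and RNF43. Over all genes 56.5% were called, 27.5% higher and 29% lower, and at least 2-fold rises and falls made up 8.02% and 3.1%. Here too the filter favoured the falls of WNT11 and SFRP5 and the rise of CXXC4. The median log2 fold change was -0.20 over the members and 0.00 over all genes, and the groups did not overlap for 27 members and for 60.1% of all genes. Of these, 8 members lay above control, against 29.1% of all genes, and 19 below it, against 31%. Both comparisons use the same 3 control libraries, so a chance deviation of these would appear in each, and the values of the 2 knockdowns are given side by side. Since RNA was taken from whole cultures, fewer cells with a transcript and less of it per cell cannot be told apart.

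**Figure D2:**
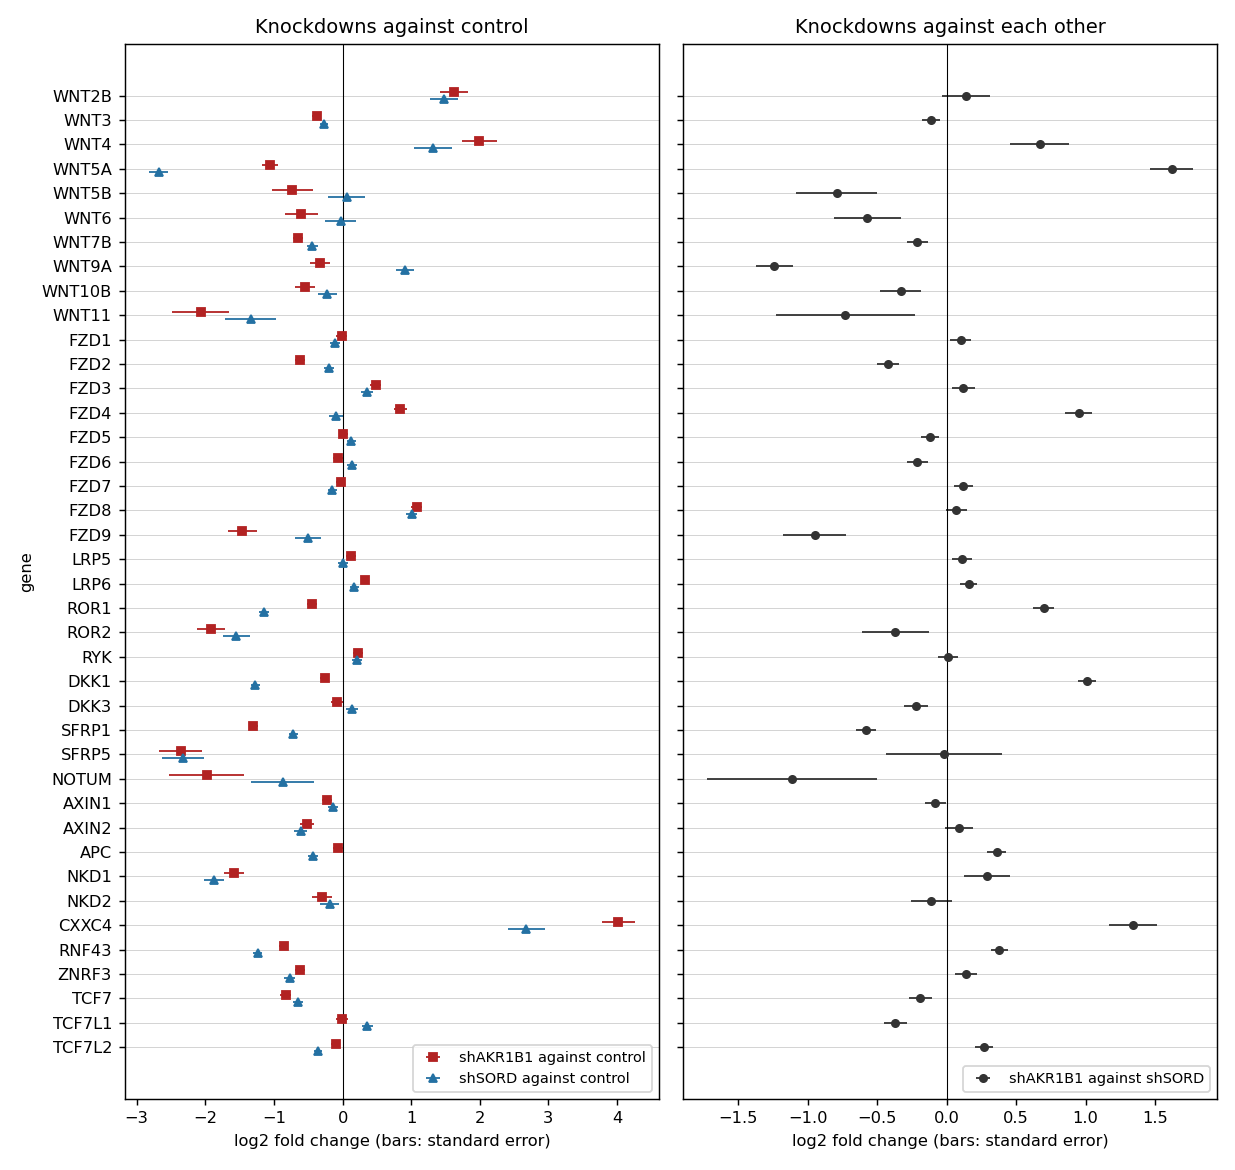
Fitted log2 fold change of each tested member with its standard error (bars), in shAKR1B1 and shSORD against control on the left and in shAKR1B1 against shSORD on the right; genes are ordered by role. CXXC4 reaches 4.02 in shAKR1B1 and WNT5A -2.68 in shSORD, and on the right WNT5A (1.62) and WNT9A (-1.24) are at the 2 ends.

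The sequence just upstream of 4 members that fell in both knockdowns is shown, because TCF/LEF factors read short DNA motifs and the set contains both TCF factors and genes known to respond to them. The 4 were picked after their values were seen: WNT5A as the ligand that fell most in shSORD, DKK1 as the most abundant member, RNF43 as an abundant feedback inhibitor and TCF7 as the TCF factor that fell. Each line gives the 250 bases before 1 of the start sites listed by RefSeq (build GRCh38.p14), read 5′ to 3′ on the gene's strand, and capitals mark a match on either strand to a TCF/LEF motif. The first form searched was CTTTGAT. The second was CTTTGAA, and the last was CTTTGTT.
WNT5A (chr3:55481399-55481648, minus strand): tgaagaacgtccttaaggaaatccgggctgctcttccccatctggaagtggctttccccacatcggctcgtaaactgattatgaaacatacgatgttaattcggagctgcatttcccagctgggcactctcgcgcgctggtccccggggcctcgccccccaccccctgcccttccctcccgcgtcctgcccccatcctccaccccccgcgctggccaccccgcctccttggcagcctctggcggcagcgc
DKK1 (chr10:52314031-52314280, plus strand): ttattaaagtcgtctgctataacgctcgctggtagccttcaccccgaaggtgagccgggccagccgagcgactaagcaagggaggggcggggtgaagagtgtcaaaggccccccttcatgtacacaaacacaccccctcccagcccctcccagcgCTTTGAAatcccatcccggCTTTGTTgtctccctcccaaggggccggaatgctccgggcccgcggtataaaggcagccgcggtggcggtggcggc
RNF43 (chr17:58402722-58402971, minus strand): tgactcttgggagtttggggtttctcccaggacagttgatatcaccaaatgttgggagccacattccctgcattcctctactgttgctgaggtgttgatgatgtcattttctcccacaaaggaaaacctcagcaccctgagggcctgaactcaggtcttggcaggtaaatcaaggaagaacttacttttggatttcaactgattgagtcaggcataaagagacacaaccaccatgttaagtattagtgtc
TCF7 (chr5:134123368-134123617, plus strand): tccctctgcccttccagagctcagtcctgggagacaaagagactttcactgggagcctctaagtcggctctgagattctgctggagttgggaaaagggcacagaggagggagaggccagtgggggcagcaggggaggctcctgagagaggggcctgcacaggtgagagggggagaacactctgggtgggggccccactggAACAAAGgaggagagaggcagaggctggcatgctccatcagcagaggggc
DKK1 holds CTTTGAA from position -95 and CTTTGTT from position -76 relative to the start, and TCF7 holds CTTTGTT on the other strand at position -50, so that its capitals show the reverse complement. The windows of WNT5A and RNF43 hold none of these letters. Each printed window is the first listed for its gene with none of that gene's own exons before the start. It need not be the main promoter, and which start sites these cells use was not tested. The base pair CG occurred 18 times in the windows of WNT5A and DKK1, 1 time in that of TCF7 and 0 times in that of RNF43. Guanine and cytosine made up 62.8% of the DKK1 window and 45.2% of that of RNF43. With 50 more bases after the start, such windows were listed for 34 of the 50 members (42 windows), and 4 of the 42 (9.52%) held a motif, those of WNT3, DKK1, TCF7 and TCF7L2. The share among all 35116 windows was 11.5%. The motif thus was not more frequent upstream of the members, and a match is a string of letters, not a shown binding site.

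Ligands moved in both directions. Of the 10 tested, 2 rose and 7 fell in shAKR1B1, and 3 rose and 4 fell in shSORD, beside 27.8% and 29.6% of all genes in shAKR1B1 and 27.5% and 29% in shSORD. WNT2B and WNT4 were the low-level ligands that rose, and WNT5A and WNT11, both known mainly for signalling without beta-catenin, fell.

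WNT5A (ENSG00000114251) was at 6.13, 6.07 and 6.62 CPM in the 3 control libraries, at 2.76, 3.11 and 3.13 in shAKR1B1 and at 0.906, 0.829 and 1.20 in shSORD. Every control library was above every shAKR1B1 library, and these in turn were above every shSORD library. The mean fell from 6.27 ± 0.299 CPM (SD, n = 3) to 47.8% of control in shAKR1B1 (log2 fold change -1.06, SE 0.120, adjusted p = 2.9e-06) and to 15.6% in shSORD (-2.68, SE 0.142, adjusted p = 1.43e-09).

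WNT11 (ENSG00000085741), a ligand of cell movement in development, was scarce: 19, 16 and 11 counts in control, 3, 3 and 5 in shAKR1B1 and 6, 8 and 5 in shSORD. In CPM the control libraries, at 0.525, 0.424 and 0.280, were above all knockdown libraries, which lay between 0.0740 and 0.195. The log2 fold change was -2.07 (SE 0.415, adjusted p = 0.000597) in shAKR1B1 and -1.34 (SE 0.369, adjusted p = 0.00624) in shSORD. With so few counts the size of these falls is loosely set.

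WNT4 (ENSG00000162552), best known from kidney and female reproductive tract development, rose in both knockdowns. It had 0.331, 0.318 and 0.483 CPM in control, 1.65, 1.28 and 1.62 in shAKR1B1 and 0.699, 1.17 and 0.978 in shSORD. The 3 groups did not overlap, with shAKR1B1 the highest. The rise was 3.97-fold in shAKR1B1 (log2 1.99, SE 0.254, adjusted p = 9.3e-06) and 2.5-fold in shSORD (1.32, SE 0.272, adjusted p = 0.000785).

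WNT2B (ENSG00000134245), a ligand that acts through beta-catenin in gut and lung development, was at 0.552, 0.530 and 0.687 CPM in control, 1.96, 1.75 and 1.76 in shAKR1B1 and 1.89, 1.29 and 1.78 in shSORD. All 6 knockdown libraries were above all controls, and the 2 knockdowns overlapped each other. It rose 3.06-fold (log2 1.62, SE 0.205, adjusted p = 8.68e-06) in shAKR1B1 and 2.78-fold (1.48, SE 0.207, adjusted p = 2.65e-05) in shSORD. In the GENCODE 29 annotation 2661 exon bases of WNT2B are shared with ST7L on the other strand. ST7L had 2939 counts over all libraries against 475 for WNT2B, and log2 fold changes of 0.02 and 0.03 (adjusted p = 0.832 and 0.771).

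WNT9A (ENSG00000143816) was above control in shSORD and below it in shAKR1B1. Control libraries had 4.92, 4.03 and 3.77 CPM, shAKR1B1 3.55, 3.06 and 3.50, and shSORD 8.99, 8.14 and 6.72. It rose 1.88-fold in shSORD (log2 0.91, SE 0.129, adjusted p = 2.94e-05). In shAKR1B1 the log2 fold change of -0.33 (SE 0.141) missed the threshold at adjusted p = 0.0585, although the libraries did not overlap, and passed it at 0.049 when control library 3 was left out.

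The abundant ligand WNT7B, known for its role in lung growth, fell from 169 ± 2.08 CPM to 108 ± 5.21 in shAKR1B1 (log2 -0.65, SE 0.0757, adjusted p = 4.07e-06) and to 125 ± 16.4 in shSORD (-0.44, SE 0.0754, adjusted p = 0.000171), n = 3 each. WNT3, a canonical ligand, went from 18.9 ± 0.256 CPM to 14.5 ± 0.416 and 15.6 ± 0.340, a fall in both (adjusted p = 0.00015 and 0.00218). WNT10B fell in shAKR1B1 (log2 -0.55, adjusted p = 0.00472) and had -0.22 (adjusted p = 0.186) in shSORD. These 3 ligands were therefore all lower in shAKR1B1. WNT5B (log2 -0.73, adjusted p = 0.0469) and WNT6 (-0.60, adjusted p = 0.0465) were called lower in shAKR1B1 only just. DESeq2 gave adjusted p = 0.103 and 0.0773 for them. The WNT5B call was lost without any 1 of the control libraries or without shAKR1B1 library 1 or 3 (adjusted p 0.0766 to 0.167), and the WNT6 call without any 1 of the 6 libraries (0.0532 to 0.16). In shSORD their log2 fold changes were 0.06 and -0.03, not called.

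Frizzled receptors are the main Wnt receptors. Of the 9 tested, 3 rose (FZD3, FZD4, FZD8) and 2 fell (FZD2, FZD9) in shAKR1B1, and 2 rose (FZD3, FZD8) and 2 fell (FZD2, FZD9) in shSORD under TMM scaling, the library scaling of the main test. The 5 and 4 of 9 called are no larger a share than the 57.4% and 56.5% of all genes. Under upper quartile scaling FZD5 and FZD6 were also called higher in shSORD (adjusted p = 0.0151 and 0.0198), and FZD2 and FZD9 were not called there (0.179 and 0.0714). FZD1, FZD5, FZD6 and FZD7 had log2 fold changes from -0.15 to 0.14 in the 2 knockdowns and were not called under TMM scaling. Leaving out shSORD library 2 made FZD5 and FZD6 pass as higher (adjusted p = 0.0322 and 0.0054) and FZD7 as lower (0.0196) in shSORD, and leaving out shSORD library 3 made FZD5 pass (0.0311).

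FZD8 (ENSG00000177283) stood at 10.6, 9.73 and 10.9 CPM in control, 20.7, 21.8 and 23.2 in shAKR1B1 and 22.5, 20.9 and 19.4 in shSORD. The knockdown libraries overlapped each other and were all above control by about the same distance. It rose 2.11-fold in shAKR1B1 (log2 1.08, SE 0.0803, adjusted p = 3.41e-08) and 2.01-fold in shSORD (1.01, SE 0.0803, adjusted p = 9.63e-08).

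FZD9 (ENSG00000188763) had 2.26, 2.15 and 1.86 CPM in control, 0.888, 0.592 and 0.812 in shAKR1B1 and 1.29, 1.9 and 1.2 in shSORD. The shAKR1B1 libraries were below all others, and shSORD library 2 lay within the control range. The receptor fell to 36.6% of control in shAKR1B1 (log2 -1.46, SE 0.215, adjusted p = 3.96e-05). In shSORD it was called at -0.50 (SE 0.192, adjusted p = 0.0361), a call that was lost without control library 1 or 2 or shSORD library 1 or 3 (adjusted p 0.0872 to 0.135), with DESeq2 (0.0679) and under upper quartile scaling (0.0714).

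FZD4, the receptor of Norrin as well as of Wnt ligands, rose in shAKR1B1 from 5.97 ± 0.723 to 10.7 ± 0.581 CPM (log2 0.84, SE 0.0975, adjusted p = 3.45e-06) and was at 5.55 ± 0.0983 in shSORD (-0.10, adjusted p = 0.411). It shares 1399 exon bases with PRSS23 on the other strand. PRSS23 had 166767 counts over all libraries against 2578 for FZD4. It fell in shAKR1B1 (log2 -0.98), so the 2 genes moved in opposite directions there. Whether reads of PRSS23 entered the counts of FZD4 was not tested. FZD2, the most abundant Frizzled per length, fell from 54.2 ± 3.25 CPM to 35.3 ± 1.39 in shAKR1B1 (log2 -0.62, adjusted p = 8.2e-06) and was at 47.2 ± 5.11 in shSORD (-0.20, adjusted p = 0.0363). That last call was lost without any 1 control library or without shSORD library 1 or 3 (adjusted p 0.0501 to 0.172). FZD3 rose in both, by 0.48 and 0.36 log2 units (adjusted p = 0.000213 and 0.00224).

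Co-receptors and alternative receptors moved in both directions. LRP6, which carries the canonical signal, rose slightly from 145 ± 3.57 CPM to 182 ± 5.46 in shAKR1B1 (log2 0.33, adjusted p = 0.000375) and to 163 ± 14.4 in shSORD (0.17, adjusted p = 0.0298), the latter lost without any 1 control library or without shSORD library 1 (0.0537 to 0.086). LRP5 was at 149 ± 5.87, 162 ± 4.80 and 150.1 ± 17.7 CPM in control, shAKR1B1 and shSORD and was not called. The receptor tyrosine kinase family members ROR1 and ROR2, which bind WNT5A, fell in both knockdowns.

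ROR1 (ENSG00000185483) was at 16.2, 15.7 and 16.2 CPM in control, 11.3, 12.3 and 11.6 in shAKR1B1 and 7.20, 7.07 and 7.45 in shSORD. The groups did not overlap, and shSORD was the lowest. The level fell to 73.3% in shAKR1B1 (log2 -0.45, SE 0.0708, adjusted p = 7.48e-05) and to 45.2% in shSORD (-1.14, SE 0.0738, adjusted p = 1.1e-08).

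ROR2 (ENSG00000169071), at a lower level, had 2.54, 2.47 and 1.93 CPM in control, 0.398, 0.691 and 0.696 in shAKR1B1 and 0.777, 0.805 and 0.777 in shSORD. All knockdown libraries were below 1 CPM and all controls above it. Its fall was 3.79-fold in shAKR1B1 (log2 -1.92, SE 0.205, adjusted p = 1.51e-06) and 2.93-fold in shSORD (-1.55, SE 0.195, adjusted p = 9.33e-06). RYK, a Wnt receptor with an inactive kinase domain, rose by 0.22 and 0.21 log2 units (adjusted p = 0.0189 and 0.0259). These calls did not survive leaving out control library 1 or 2, or shAKR1B1 library 1 in the first case (0.0594 to 0.099) and shSORD library 3 in the second (0.051 to 0.127).

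**Figure D3:**
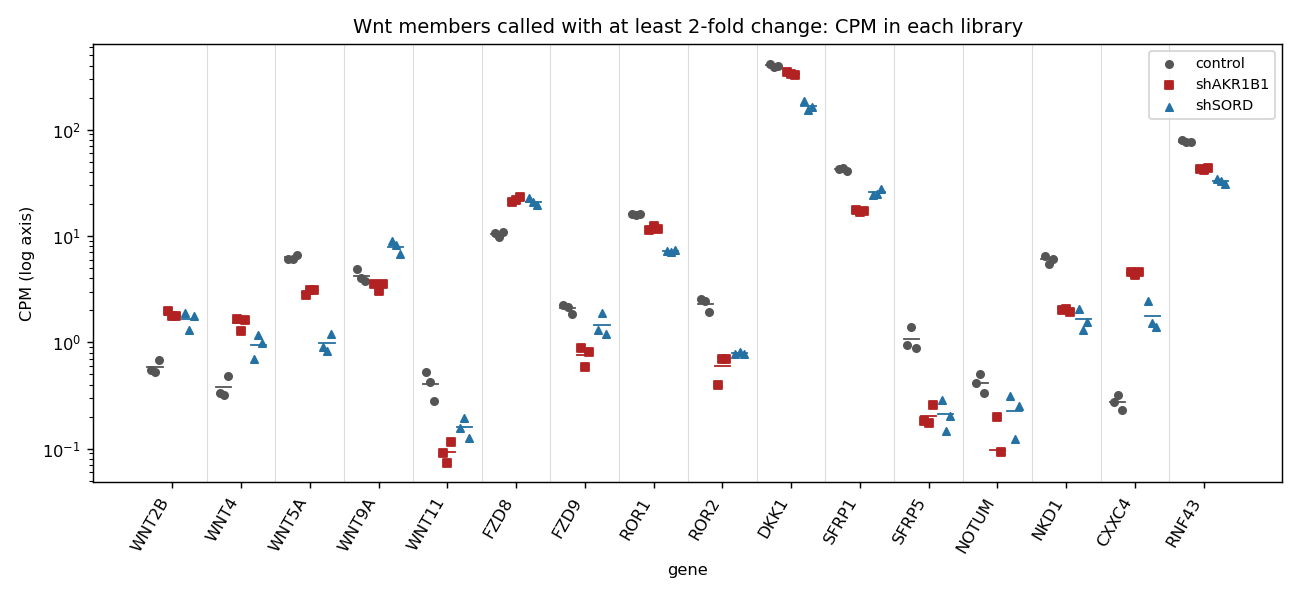
CPM of the 16 members called with at least 2-fold change in any of the 3 comparisons, on a log axis, 1 point per library with a short line at the group mean; the 1 shAKR1B1 library in which NOTUM had no count is not drawn. Control points lie above both knockdowns for WNT5A, ROR1, DKK1, NKD1 and RNF43, and far below them for CXXC4.

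Of the 5 tested secreted antagonists among the members, 4 fell in shAKR1B1 (DKK1, SFRP1, SFRP5, NOTUM) and 3 fell in shSORD (DKK1, SFRP1, SFRP5), beside 29.6% and 29% of all genes. SFRP5 and NOTUM reached the filter level in control alone, so the filter favoured their falls. DKK4, SFRP2, WIF1 and APCDD1 were not tested, so these counts do not cover them. SFRP4, an antagonist of the SFRP family outside the 50 that was picked out after its values were seen, rose in both (log2 0.34 and 0.70, adjusted p = 0.00999 and 2.79e-05). DKK3, a divergent member of the Dickkopf family, was at 13.3 ± 1.10 CPM in control and was not called in either, with log2 fold changes of -0.08 and 0.14. Under upper quartile scaling, and without shSORD library 3, DKK3 passed as higher in shSORD (adjusted p = 0.0474 and 0.0176).

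DKK1 (ENSG00000107984), whose upstream sequence is given above, was the most abundant member. It stood at 415, 392 and 399 CPM in control, 350.2, 330.4 and 327 in shAKR1B1 and 187, 152 and 162 in shSORD. The groups did not overlap, and the shSORD libraries were far below the other 6. It fell to 83.6% of control in shAKR1B1 (log2 -0.26, SE 0.0665, adjusted p = 0.00384) and to 41.4% in shSORD (-1.27, SE 0.0677, adjusted p = 1.45e-09). DKK1 shares 212 exon bases with PRKG1-AS1 on the other strand, which had 1099 counts over all libraries against 104313 for DKK1. PRKG1-AS1 had log2 fold changes of -0.03 (adjusted p = 0.871) in shAKR1B1 and -0.47 (0.00926) in shSORD.

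SFRP1 (ENSG00000104332), a secreted Frizzled-related protein that binds Wnt ligands, had the opposite order of the knockdowns. Control libraries had 42.6, 43.9 and 40.4 CPM, shAKR1B1 17.7, 16.8 and 17.2, and shSORD 24.4, 25.0 and 27.8. The shAKR1B1 libraries were the lowest and no groups overlapped. The fall was to 40.7% in shAKR1B1 (log2 -1.30, SE 0.0690, adjusted p = 9.19e-10) and to 60.8% in shSORD (-0.72, SE 0.0670, adjusted p = 4.77e-07).

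SFRP5 (ENSG00000120057), of the same family, was near the limit of detection in both knockdowns. Its counts were 34, 52 and 35 in control, 6, 7 and 11 in shAKR1B1 and 11, 6 and 8 in shSORD, or 0.939, 1.38 and 0.891, then 0.184, 0.173 and 0.255, then 0.285, 0.146 and 0.201 CPM. All controls were above all knockdown libraries, which overlapped each other. It fell 5.12-fold (log2 -2.36, SE 0.310, adjusted p = 1.25e-05) and 5.04-fold (-2.33, SE 0.307, adjusted p = 1.45e-05).

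NOTUM (ENSG00000185269), a secreted enzyme that removes the lipid from Wnt ligands, had 15, 19 and 13 counts in control, 0, 8 and 4 in shAKR1B1 and 12, 5 and 10 in shSORD. These are 0.414, 0.504 and 0.331 CPM, then 0, 0.197 and 0.0928, then 0.311, 0.122 and 0.251. Neither knockdown overlapped control. The fall was called in shAKR1B1 (log2 -1.98, SE 0.546, adjusted p = 0.00619), where it came to -2.89 without library 2 of that group, and was not called in shSORD (-0.87, SE 0.460, adjusted p = 0.122).

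The 6 cytoplasmic regulators held both the largest rise of the set and a strong fall. In shAKR1B1 CXXC4 rose and NKD1, AXIN1 and AXIN2 fell, and in shSORD CXXC4 rose and NKD1, AXIN2 and APC fell. That is 4 of 6 called in each, beside 57.4% and 56.5% of all genes.

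CXXC4 (ENSG00000168772), also called IDAX, binds Dishevelled and inhibits canonical signalling. Control libraries had only 10, 12 and 9 counts, or 0.276, 0.318 and 0.229 CPM. With shAKR1B1 it reached 4.63, 4.27 and 4.59 CPM, and with shSORD 2.43, 1.51 and 1.40. The groups did not overlap, and the rise was to a level that is still low beside most members. It amounted to 16.2-fold in shAKR1B1 (log2 4.02, SE 0.240, adjusted p = 3.37e-09) and 6.43-fold in shSORD (2.68, SE 0.273, adjusted p = 1.13e-06).

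NKD1 (ENSG00000140807), a Dishevelled-binding feedback inhibitor, was at 6.46, 5.46 and 6.11 CPM in control, 2.02, 2.07 and 1.93 in shAKR1B1 and 2.05, 1.32 and 1.55 in shSORD. All knockdown libraries lay well below control and the 2 knockdowns overlapped. The fall was 2.99-fold (log2 -1.58, SE 0.142, adjusted p = 2.48e-07) and 3.67-fold (-1.88, SE 0.146, adjusted p = 7.23e-08). Its relative NKD2 was not called, at -0.30 (adjusted p = 0.0908) and -0.19 (0.267). Without library 2 of shAKR1B1 and of shSORD, respectively, NKD2 passed as lower (0.0254 and 0.039).

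AXIN2, the feedback form of the AXIN scaffold, fell from 28.9 ± 1.62 CPM to 20.2 ± 1.32 in shAKR1B1 (log2 -0.52, SE 0.0982, adjusted p = 0.000393) and 19.0 ± 3.12 in shSORD (-0.61, SE 0.0984, adjusted p = 9.81e-05). AXIN1, the constitutive form, fell by 0.22 log2 units (adjusted p = 0.0189) in shAKR1B1 and was not called in shSORD (-0.14, adjusted p = 0.122). Its call in shAKR1B1 was lost under upper quartile scaling (0.0869) and without control library 2 or 3 or shAKR1B1 library 1 or 3 (0.0638 to 0.0755), and without shSORD library 2 AXIN1 passed in shSORD (0.0106). APC, a scaffold of the destruction complex, was at 48.8 ± 1.44 CPM in control, 46.6 ± 1.68 in shAKR1B1 (not called) and 36.3 ± 3.28 in shSORD, where it fell (log2 -0.43, SE 0.0696, adjusted p = 0.000107).

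Both ubiquitin ligases that take Frizzled receptors off the cell surface fell in both knockdowns. RNF43 (ENSG00000108375) had 79.3, 75.8 and 76.7 CPM in control, 42.9, 41.3 and 43.3 in shAKR1B1 and 34.5, 32.8 and 30.7 in shSORD. No groups overlapped, and shSORD was the lowest. It fell to 55.0% of control in shAKR1B1 (log2 -0.86, SE 0.0594, adjusted p = 1.51e-08) and to 42.3% in shSORD (-1.24, SE 0.0602, adjusted p = 5.66e-10). RNF43 overlaps SUPT4H1 on the same strand by 143 exon bases, and SUPT4H1 fell by 0.38 and 0.29 log2 units. RNF43 also shares 4326 exon bases with AC004687.2 on the same strand, for which no counts were available. It shares 1521 with TSPOAP1-AS1 on the other strand, which was not called (log2 -0.15 and -0.14). ZNRF3, the close relative of RNF43, fell from 61.9 ± 2.61 CPM to 40.2 ± 1.58 in shAKR1B1 (log2 -0.62, SE 0.0781, adjusted p = 7.92e-06) and 36.4 ± 4.30 in shSORD (-0.77, SE 0.0784, adjusted p = 1.19e-06).

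Among the TCF/LEF factors, TCF7 fell in both knockdowns from 13.0 ± 0.446 CPM to 7.27 ± 0.399 in shAKR1B1 (log2 -0.83, SE 0.0799, adjusted p = 5.06e-07) and 8.28 ± 0.316 in shSORD (-0.65, SE 0.0787, adjusted p = 6.84e-06). TCF7L2, the most abundant of the family here, fell in shSORD from 36.6 ± 0.715 to 28.5 ± 1.39 CPM (log2 -0.36, adjusted p = 0.000176) and was at 34.2 ± 1.42 in shAKR1B1 (-0.10, adjusted p = 0.194). TCF7L1, known mostly as a repressor, rose in shSORD from 7.77 ± 0.101 to 9.95 ± 0.206 CPM (log2 0.36, adjusted p = 0.00193) and was at 7.71 ± 0.595 in shAKR1B1 (adjusted p = 0.918). LEF1 was nearly undetected, as given above. TCF7 shares 210 exon bases with SKP1 on the other strand, which had 64545 counts over all libraries against 3302 for TCF7. SKP1 was not called (log2 0.00 and -0.03, adjusted p = 0.981 and 0.746). TCF7L2 shares 300 with AL158212.2 on the other strand, which had 134 counts against 11541 for TCF7L2. AL158212.2 rose in both knockdowns (log2 0.93 and 1.17, adjusted p = 0.0369 and 0.00886).

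Compared directly, the 2 knockdowns differed in 15 of the 40 tested members, with 9 higher in shAKR1B1 and 6 higher in shSORD. Over all genes 30.7% differed, 15.5% higher and 15.1% lower in shAKR1B1, and the groups did not overlap for 23 members against 40.1% of all genes, with 10 members against 20% of genes above and 13 against 20.1% below. The median log2 difference was 0.00 over the members. WNT5A, DKK1 and CXXC4 were at least 2-fold higher in shAKR1B1 and WNT9A at least 2-fold lower, 4 members in all, against 5.19% of all genes, 2.47% higher and 2.72% lower.

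WNT5A was 3.07-fold higher in shAKR1B1 than in shSORD (log2 1.62, SE 0.154, adjusted p = 1.43e-06), CXXC4 2.52-fold (1.34, SE 0.171, adjusted p = 2.7e-05) and DKK1 2.02-fold (1.01, SE 0.0674, adjusted p = 3.72e-08). WNT9A was 2.36-fold lower (-1.24, SE 0.132, adjusted p = 4.73e-06). For these 4 genes every library of one knockdown was beyond every library of the other, as the values above show. The receptor ROR1 shared the direction of its ligand WNT5A, higher in shAKR1B1 (log2 0.70, SE 0.0751, adjusted p = 5.16e-06). FZD4 (0.95, SE 0.0977, adjusted p = 3.38e-06), RNF43 (0.38), APC (0.36) and TCF7L2 (0.27) were also higher in shAKR1B1. FZD9 (-0.95, SE 0.225, adjusted p = 0.0048), SFRP1 (-0.58, SE 0.0697, adjusted p = 1.49e-05), FZD2 (-0.42) and TCF7L1 (-0.37) were lower.

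Less secure were WNT4 and FZD6. WNT4 was higher in shAKR1B1 by 0.67 (SE 0.212, adjusted p = 0.0264), which was lost without shAKR1B1 library 1 or 3 or shSORD library 1 (0.09 to 0.108) and with DESeq2 (0.0565). FZD6 was lower by 0.21 log2 units (adjusted p = 0.0435), lost without any 1 shAKR1B1 library or without shSORD library 1 or 3 (0.0782 to 0.159). With the replicate number as a block, which same-numbered knockdown libraries appear to share, the counts were 10 higher and 8 lower. The added calls were LRP6 (0.16, adjusted p = 0.0424 against 0.0671 without the block), WNT7B (-0.20, 0.0277 against 0.0506) and DKK3 (-0.21, 0.0383 against 0.0691). Without 1 library, some more members passed: WNT5B without shAKR1B1 library 2 (-1.22, adjusted p = 0.01), WNT6 without shSORD library 3 (-0.75, 0.0188) and NKD1 without shSORD library 1 (0.48, 0.0407). WNT7B and LRP6 passed without shSORD library 1 (0.0261 and 0.0266) or 3 (0.0139 and 0.0259), and DKK3 without shSORD library 3 (0.00714). SFRP5, FZD8, WNT2B and RYK had log2 differences between -0.02 and 0.14 that were not called, with SE of 0.419, 0.0760, 0.171 and 0.0733, so the data bound the difference closely for FZD8 and RYK but not for SFRP5.

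Other genes of the pathway were listed in full: 73 genes, of which 56 were tested. Among these 16 rose and 26 fell in shAKR1B1, 11 rose and 22 fell in shSORD, and 11 were higher and 18 lower in shAKR1B1 than in shSORD. The shares of all genes called were 57.4%, 56.5% and 30.7%, so the 33 of 56 called in shSORD are near the background. Of the 14 secretion and agonist genes 6 were tested. In shAKR1B1 LGR4 rose and PORCN, WLS, RSPO1, RSPO3 and LGR6 fell, and in shSORD PORCN, WLS, RSPO3 and LGR6 fell, beside 57.4% and 56.5% of all genes called. Genes named in this paragraph only for a small count were named after their values were seen.

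WLS (ENSG00000116729), the carrier that brings every lipid-modified Wnt to the cell surface, was at 19.6, 18.2 and 19.4 CPM in control, 6.77, 6.09 and 6.77 in shAKR1B1 and 11.7, 12.3 and 11.8 in shSORD. No groups overlapped. It fell by 1.54 log2 units (SE 0.0768, adjusted p = 4.56e-10) and by 0.68 (SE 0.0722, adjusted p = 1.8e-06). LGR6 (ENSG00000133067), a receptor for R-spondins, which protect Frizzleds from RNF43 and ZNRF3, had 6.10, 6.42 and 5.50 CPM in control, 1.81, 2.15 and 2.20 in shAKR1B1 and 1.42, 0.683 and 0.903 in shSORD. Here shSORD was the lowest and the groups did not overlap. It fell to 34.2% (log2 -1.54, SE 0.167, adjusted p = 1.81e-06) and 16.7% (-2.58, SE 0.186, adjusted p = 3.4e-08) of control.

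Of 12 further extracellular antagonists and modifiers 7 were tested, with 3 higher and 3 lower in shAKR1B1 and 2 and 2 in shSORD, the latter near the 56.5% of all genes called (57.4% in shAKR1B1). TRABD2A (ENSG00000186854), a membrane protease that cleaves Wnt ligands, was at 3.53, 4.11 and 3.74 CPM in control, 1.23, 1.09 and 1.16 in shAKR1B1 and 3.16, 3.58 and 4.11 in shSORD. It fell in shAKR1B1 (log2 -1.72, SE 0.148, adjusted p = 1.67e-07), while shSORD overlapped control (-0.07, adjusted p = 0.665), and the direct difference was -1.65 (SE 0.148, adjusted p = 8.19e-07). GPC6 (ENSG00000183098), a cell-surface heparan sulfate proteoglycan rather than an antagonist, had 14.7, 13.3 and 14.0 CPM in control, 40.6, 36.8 and 38.3 in shAKR1B1 and 53.7, 44.4 and 53.4 in shSORD. Every knockdown library was above every control, with rises of 2.75-fold (log2 1.46, SE 0.0832, adjusted p = 1.98e-09) and 3.60-fold (1.85, SE 0.0830, adjusted p = 2.53e-10).

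CTNNB1 (ENSG00000168036), the gene of beta-catenin, was at 308, 306 and 305 CPM in control, 311, 300.0 and 316 in shAKR1B1 and 255, 248 and 271 in shSORD. Libraries of shAKR1B1 overlapped control (log2 0.01, SE 0.0494, adjusted p = 0.817), and those of shSORD were all lower (-0.25, SE 0.0495, adjusted p = 0.000634). Of the 12 genes of beta-catenin and its destruction complex, all tested, 1 rose and 4 fell in shAKR1B1, 2 rose and 3 fell in shSORD, and none of them reached 2-fold. These 5 of 12 in each are a smaller share than the 57.4% and 56.5% of all genes. RNA levels say nothing of the amount of beta-catenin protein, which the pathway controls by degradation.

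Of 10 genes commonly used as targets of beta-catenin and TCF, 8 were tested, with 3 higher and 4 lower in shAKR1B1 and 2 higher and 3 lower in shSORD, beside 57.4% and 56.5% of all genes called. These 10 leave out the feedback inhibitors among the members that were named above as switched on by beta-catenin. Of those, AXIN2, NKD1, RNF43 and ZNRF3 fell in both knockdowns. NOTUM, whose fall the filter favoured, was called lower in shAKR1B1 only. EPHB2 (ENSG00000133216), an ephrin receptor, fell from 104, 101 and 102 CPM to 26.6, 30.1 and 28.2 in shAKR1B1 (log2 -1.85, SE 0.0655, adjusted p = 1.29e-11) and to 52.4, 57.2 and 50.7 in shSORD (-0.93, SE 0.0630, adjusted p = 1.77e-08). MMP7 (ENSG00000137673), matrilysin, moved the other way, from 26.2, 26.5 and 28.0 CPM to 68.2, 62.5 and 64.4 in shAKR1B1 (1.27, SE 0.0837, adjusted p = 9.23e-09) and 42.3, 33.1 and 34.5 in shSORD (0.44, SE 0.0842, adjusted p = 0.000403). In both genes no groups overlapped and shAKR1B1 was farther from control. TNFRSF19 (ENSG00000127863), a receptor of the tumour necrosis factor family, was at 4, 3.66 and 3.38 CPM in control, 0.613, 1.01 and 1.14 in shAKR1B1 and 4.12, 3.80 and 4.31 in shSORD. It fell in shAKR1B1 alone by this test (-1.96, SE 0.175, adjusted p = 2.31e-07), with 0.15 (adjusted p = 0.39) in shSORD and a direct difference of -2.11 (SE 0.172, adjusted p = 3.11e-07).

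**Figure D4:**
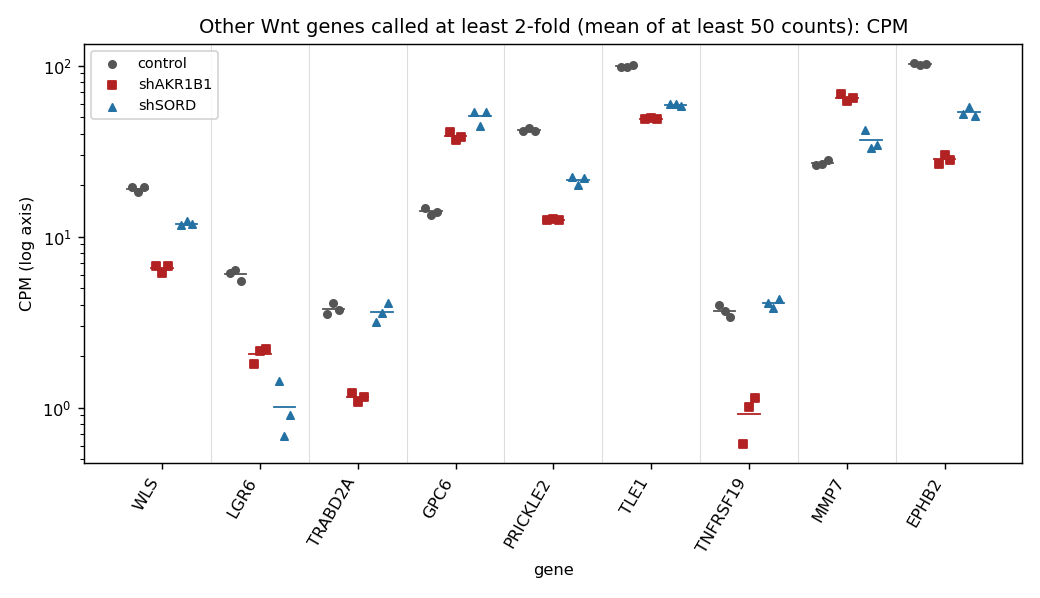
CPM of the 9 other Wnt pathway genes with a mean of at least 50 counts that were called with at least 2-fold change in either knockdown against control (DACT2 and DACT3, called at that size with fewer counts, are not drawn), on a log axis, 1 point per library with a short line at the group mean. TRABD2A and TNFRSF19 are low in shAKR1B1 and at the control level in shSORD, GPC6 and MMP7 are above control in both, and the other 5 are below it in both.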

How the data were processed

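RNA of 9 A549 libraries, 3 per group, was sequenced after a strand-marking mRNA kit, per the labels' protocols. Per the submitters' processing notes, the tools were cutadapt 1.9.1, STAR 2.5.2b, featureCounts 1.5.1 and DESeq2 1.12.3, with build GRCh37. The authors deposited raw counts of reads per Ensembl gene; the sources used here give neither the annotation release nor the strand setting, so genes that overlap on the other strand may share reads. Symbols matched 51996 of 57905 IDs. Exon lengths and overlaps came from GENCODE 29 and promoters from RefSeq, both on another build than the counts. Coordinates are given only for the printed promoter windows, in build GRCh38.p14.

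Counts were tested in R 4.3.3 with edgeR 4.0.16. Libraries were scaled by TMM, genes with low counts were dropped by the default group-wise filter, and 1 quasi-likelihood model held all 9 libraries with a mean for each group. The p-values of each comparison were adjusted by Benjamini-Hochberg over 16916 genes. A call is an adjusted p under 0.05, and words such as rose and fell are used of calls. All adjusted p-values are from this test unless DESeq2 1.42.0 is named. The standard error (SE) is the size of the log2 fold change over the root of its F statistic, and fitted values used a prior count of 0.125. CPM were computed from the deposited counts and the library sizes after TMM scaling. The test was checked on simulated data for shAKR1B1 against control, with the same spread for all genes and groups. That setting does not cover genes of unequal spread or the larger spread of shSORD, so the check says nothing about these. Members with values of every library are those called with at least 2-fold change in any comparison; other pathway genes are those called at that size against control with a mean of at least 50 counts, plus CTNNB1. The members and lists were chosen with earlier results of these data known. Alternatives were other scalings, filters and fits, DESeq2, a replicate block and leaving out each library.

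Same-numbered control and knockdown libraries did not deviate together (correlations -0.0285 to 0.0314), whereas same-numbered shAKR1B1 and shSORD libraries did (0.102, 0.193 and 0.144). Knockdown libraries of different number had -0.175 to 0.0322. Each group was centred on its own mean, so these values are not independent of each other. The labels give no pairing, and whether the numbers mark a shared batch is not known.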

Additional observations from a re-analysis of the deposited data

How the results depend on the processing

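For each comparison, 4 counts were recomputed under every alternative: members higher, members lower, members past 2-fold and other pathway genes called. All 172 recomputed counts were within 1.5 times the reported ones. A stricter filter, at least 1 CPM in at least 3 libraries, gave 8 members higher, 16 lower and 9 past 2-fold in shAKR1B1 against control. The main test gave 8, 21 and 12. Leaving out 1 library gave 7 to 8 members higher, 18 to 21 lower and 12 to 13 past 2-fold in shAKR1B1 against control. In shSORD against control the ranges were 7 to 11, 16 to 21 and 11 to 13, and between the knockdowns 8 to 10, 5 to 8 and 3 to 5. Other pathway genes called numbered 36 to 38, 28 to 35 and 22 to 32. With the replicate block the counts were 8 higher and 23 lower in shAKR1B1 and 9 and 18 in shSORD against control. Between the knockdowns the block gave 10 and 8, and a fit on those 6 libraries alone with the block, chosen after seeing the data, gave 9 and 9. In that fit WNT5B, WNT7B and DKK3 were added as lower in shAKR1B1 (adjusted p = 0.0424, 0.0173 and 0.0493). The block also brought WNT9A and NKD2 past the threshold as lower in shAKR1B1 against control (0.0342 and 0.0438). Of the 16 members called with at least 2-fold change, signs turned only where the difference between the knockdowns was near 0: WNT2B became -0.01 without shSORD replicate 2, and SFRP5 became 0.04 and 0.10 without shAKR1B1 replicate 1 and 2 and 0.25 without shSORD replicate 1, in a range of -0.23 to 0.25 over the libraries left out. Fits of 2 groups alone called LRP5 higher and WNT9A and NKD2 lower in shAKR1B1 against control (0.00423, 0.031 and 0.0453), and no longer called FZD2 and FZD9 in shSORD (0.0912 and 0.0529) or FZD6 between the knockdowns (0.0813). Other scalings moved the median log2 fold change of all genes by at most 0.07 from the 0 of TMM. Under upper quartile scaling 56.5% of the called genes were higher in shAKR1B1 against control, where TMM gave 48.4%. In shSORD against control the share was 58.4%, where TMM gave 48.7%. The shares of all genes higher and lower given beside the member counts thus depend on the scaling. Depth limits WNT4, WNT11, SFRP5, NOTUM and CXXC4, each with at most 19 counts per library in at least 1 group, and the 10 members below the filter.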

Other observations

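Of 16 planar polarity and scaffold genes of the pathway, 14 were tested, and 5 rose and 6 fell in each knockdown against control, beside 57.4% of all genes called in shAKR1B1 and 56.5% in shSORD. DACT2 and DACT3, scarce Dishevelled-binding scaffolds, also passed 2-fold, DACT2 upward in shAKR1B1 (log2 1.30) and DACT3 downward in both (-1.43 and -1.16); they were named after their values were seen. PRICKLE2 (ENSG00000163637), a cytoplasmic protein of the planar polarity pathway, was at 41.3, 43 and 41.3 CPM in control, 12.6, 12.7 and 12.4 in shAKR1B1 and 22.4, 20.2 and 22.1 in shSORD. No groups overlapped. It fell to 30.0% of control in shAKR1B1 (log2 -1.74, SE 0.0662, adjusted p = 2.59e-11) and to 51.5% in shSORD (-0.96, SE 0.0632, adjusted p = 1.39e-08).

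Of 9 nuclear cofactors of TCF factors, all tested, 3 rose and 4 fell in shAKR1B1 and 4 fell in shSORD, against the same shares of all genes. TLE1 (ENSG00000196781), a Groucho corepressor that binds TCF factors, was at 97.8, 98.2 and 100.5 CPM in control, 48.6, 49.4 and 48.6 in shAKR1B1 and 59.9, 59.7 and 57.8 in shSORD. No groups overlapped here either. The fall was 2.02-fold (log2 -1.02, SE 0.0514, adjusted p = 5.22e-10) and 1.67-fold (-0.74, SE 0.0509, adjusted p = 2.09e-08). Its relative TLE3, chosen after its values were seen, rose in shAKR1B1 (log2 0.24, adjusted p = 0.00468) and fell in shSORD (-0.56, adjusted p = 4.05e-06), with a direct difference of 0.79 (SE 0.0639, adjusted p = 2.74e-07).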
